A study of Homo sapiens with 24 samples.

Results

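The genes described here are 35 transcriptional targets of the tumour suppressor p53 that are neither CDK inhibitors nor members of the BCL2 or death receptor families. They were taken from a list of gene names that was written with earlier results of these data known. All 35 were found among the 28907 gene symbols of the deposited expression table. The table holds 24 RNA-seq libraries from A2780 and ES2, which are human ovarian cancer lines, in 8 groups of 3. In each line, cells given siVRK1, a small interfering RNA against the kinase gene VRK1, stand beside cells given a control siRNA (siCtrl), and cells given the plant flavone luteolin stand beside cells given the solvent DMSO. The labels call the genotype of every sample WT. The sources used here give neither dose nor duration, nor how many siRNAs were used or their sequence. The line and treatment fields count upward from sample to sample, so that groups were taken from the titles, which name the same line and siRNA throughout a group. The labels do not say whether replicate libraries stem from separate cultures. The p-values therefore measure only the spread among these libraries, which may be technical.

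In cells with functional p53, damage and other stresses stabilise the protein, which binds sites near its target genes and raises their transcription. Among the targets are the ubiquitin ligase MDM2, its partner MDM4 and the phosphatase PPM1D, which restrain p53 and so close a feedback loop. Other targets slow the cell cycle, repair DNA, supply nucleotides, adjust mitochondria and metabolism, or tip the cell towards survival or death. VRK1 is known to phosphorylate p53. Many of these targets can also be raised by p53-independent stress pathways.

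VRK1 itself was read at 53.6, 54.4 and 55.2 TPM (transcript abundance per gene, scaled so that every library has the same total) in the A2780 siCtrl libraries and at 7.98, 9.41 and 11.3 with siVRK1. In ES2 it was 62.2, 65.5 and 66.2 with siCtrl and 2.92, 4.08 and 4.20 with siVRK1, so that all 6 siVRK1 libraries were below all 6 siCtrl libraries. Here and below, values per library run from the lowest to the highest. TPM keeps no read number, so the depth behind each value is unknown. Mitochondrial mRNAs made up 7.10% ± 1.03 of A2780 TPM with DMSO against 10.5% ± 1.40 after luteolin (SD, n = 3), and 4.57% ± 0.564 and 7.78% ± 0.791 in ES2. Transcripts of the retained-intron class made up 3.39% ± 0.114 with DMSO and 5.23% ± 0.158 with luteolin in A2780. Their part in the results was not tested, but the counts of called genes without these transcripts, and without mitochondrial mRNAs, were computed. Of 12 ovarian carcinoma and epithelial markers, 2 or 3 reached a group mean of 1 TPM in A2780, with summed levels of 6.19 to 12.6 TPM over its libraries, so that this list did not mark A2780. In ES2, 4 or 5 did, with sums of 636 to 993 TPM. Of 5 leukocyte markers, at most 1 reached 1 TPM in any group, and their summed level stayed between 0.227 and 2.17 TPM. The summed level of 4 endothelial markers was 0.12 to 1.58 TPM in A2780 libraries. In ES2 it was 36.2 to 40.02 TPM with DMSO and 9.79 to 10.8 with luteolin, most of it CDH5. Of 6 fibroblast markers, the sum in ES2 was 111 to 133 TPM with DMSO and 15.9 to 20.9 with luteolin, mostly COL1A1, with 2 of the 6 at 1 TPM or more and LUM at 0 in both groups. In A2780 that sum was 64.9 to 77.96 TPM with DMSO and 62.2 to 67.7 with luteolin. The part of these markers in the results was not tested.

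All 34 targets that could be tested rose in A2780 cells given luteolin. A gene was tested where at least 3 of the 12 libraries of its line reached 1 TPM, and was called where the limma adjusted p was below 0.05. PHLDA3, an inhibitor of AKT signalling, was the 1 member left untested, at 0 to 0.488 TPM in the A2780 DMSO and luteolin libraries. The background was high, since 45.6% of the 13012 genes tested were called higher, 19.9% were called lower, and the median gene rose by 0.22 on the log2(TPM + 1) scale, against 0.06 with median-of-ratios scaling. The values for A2780 luteolin are therefore given relative to that median of 0.22. On this scale the median target rose by 1.72, and 27 of the 34 rose by more than 2-fold. On the unadjusted scale 31 did, and 9.94% of all genes tested were both called higher and past 2-fold. Here and below, calls and adjusted p-values belong to the change before any median was taken off. In bulk RNA, fewer cells that express a gene and less of its RNA per cell cannot be told apart.

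Largest of the rises was that of GDF15, a secreted stress cytokine of the TGF-beta family. It was read at 41.003, 45.5 and 49.6 TPM with DMSO and at 935, 1019.8 and 1143 TPM with luteolin. The highest DMSO library was far below the lowest luteolin library, and the relative log2 change was 4.26 ± 0.07 (SE). Before the median was taken off, the change was 4.48 (limma adjusted p = 3.93e-13).

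The 5 genes of growth arrest and cell cycle control rose by a median of 2.89. PLK2, a polo-like kinase induced by stress, was at 4.67, 7.99 and 8.63 TPM with DMSO and 114, 124 and 124 with luteolin (3.73 ± 0.19). BTG2, an antiproliferative cofactor of mRNA deadenylation, went from 13.4, 13.4 and 14.05 to 136, 151 and 169 TPM (3.17 ± 0.07). For GADD45A, a growth arrest and DNA damage response protein, the DMSO libraries held 19.1, 23.6 and 24.4 TPM and the luteolin libraries 185, 198 and 214 (2.89 ± 0.08). In none of these 3 genes did the luteolin and DMSO libraries overlap. The kinase PLK3 rose by 1.80 ± 0.13 and cyclin G1 (CCNG1), the smallest change of this role, by 0.71 ± 0.06.

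The 3 feedback inhibitors of p53 rose by a median of 0.90. MDM2 was at 30.1, 33.7 and 37.6 TPM with DMSO and 132, 134 and 147 with luteolin (1.78 ± 0.10). Its libraries were separated by a wide gap, and the mean rose from 33.8 to 138 TPM. PPM1D went from 18.2, 18.3 and 23.8 to 41.1, 45.05 and 47.6 TPM (0.90 ± 0.10), also without overlap. MDM4 had the smallest change of all 34 targets, from 7.51, 9.16 and 11.5 to 13.4, 15.6 and 16.1 TPM (0.42 ± 0.16). Before the median was taken off, its change was 0.64 (limma adjusted p = 0.00413). The change of MDM4 lost its call with quantile normalization, at 0.29, and with its leading transcript alone, at 0.05.

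A search of promoter windows shows where a p53 consensus site lies near a start. RefSeq windows of GRCh38.p14, from 250 bases before to 50 after an annotated start, were at hand for 27 of the 35 targets. A match was 2 half-sites of the p53 consensus, 10 bases each, with the central C and G of both intact, at most 2 other mismatches in all, and a spacer of 0 or 1 base. The consensus is its own reverse complement, so 1 strand covers both. Matches were found in 3 of the 27 targets, against 0.674% of the 27305 symbols with a window. The members were listed as p53 targets, so this share is a description and no independent evidence. The 4 sites, 2 of them overlapping in DDB2, are printed 5′ to 3′ on the plus strand, with the matched bases in capitals. They lie beside members that rose with luteolin in A2780, as every tested member did. Bases are counted from the RefSeq start of the window, which in all 3 genes lies downstream of the first base of the GENCODE 29 gene.
MDM2, chr12:68808918-68808947, bases −94 to −75 from the start, 2 mismatches: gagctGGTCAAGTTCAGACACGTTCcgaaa
AEN, chr15:88621301-88621330, bases −34 to −15 from the start, 2 mismatches: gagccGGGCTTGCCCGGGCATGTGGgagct
DDB2, chr11:47214964-47214993, bases −5 to 15 from the start, 1 mismatch: gctccAAGCTGGTTTGAACAAGCCCtgggc
DDB2, chr11:47214975-47215004, bases 6 to 26 after the start, 0 mismatches and a spacer of 1: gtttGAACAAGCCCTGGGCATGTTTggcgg
A match is a run of letters, not evidence of binding, and windows of other members without one say only that these letters are not there.

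Genes of DNA repair and nucleotide supply rose by a median of 1.43, all 5 of them. The largest change was in RRM2B, the p53-inducible small subunit of ribonucleotide reductase, from 10.3, 11.01 and 13.4 to 49.7, 56.6 and 56.99 TPM (1.93 ± 0.11). DDB2 and XPC, which recognise lesions in nucleotide excision repair, had the smallest changes (0.83 ± 0.07 and 1.01 ± 0.05). The translesion polymerase POLH and the helicase ASCC3 lay between these and RRM2B (1.48 ± 0.21 and 1.43 ± 0.10).

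All 10 tested death, survival and stress effectors rose, by a median of 1.88. TP53INP1, a stress-induced regulator of autophagy and cell death, went from 2.07, 2.42 and 2.78 to 21.98, 23.4 and 26.7 TPM (2.65 ± 0.10). ZMAT3, an RNA-binding zinc finger protein that affects splicing, went from 4.11, 5.39 and 5.63 to 35.8, 36.8 and 38.98 TPM (2.45 ± 0.12). Both were several times higher in every luteolin library than in any DMSO library. CYFIP2, a subunit of the WAVE actin regulatory complex, rose by 2.19 ± 0.09, and EDA2R, a receptor of the TNF receptor superfamily, by 2.05 ± 0.09. The quinone oxidoreductase homologue TP53I3 rose by 2.01 ± 0.06 and PIDD1, the death domain protein of the PIDDosome, by 1.70 ± 0.06. The membrane protein SUSD6 rose by 1.74 ± 0.12 and the exonuclease AEN by 1.15 ± 0.06. TRIAP1, a mitochondrial protein that protects against apoptosis, and the ribosomal protein homologue RPS27L rose by 0.94 and 0.94.

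The 7 genes of autophagy, mitochondria and metabolism rose by a median of 1.76. ABHD4, a lipase of N-acyl phospholipids, was at 3.43, 3.65 and 5.71 TPM with DMSO and 27.2, 34.4 and 34.5 with luteolin (2.45 ± 0.18). The mitochondrial ferredoxin reductase FDXR rose by 2.10 ± 0.05, from 26.6, 27.9 and 28.9 to 142, 142 and 145 TPM. The mitochondrial quality control gene SPATA18 rose by 1.92 ± 0.15, the lysosomal autophagy gene DRAM1 by 1.76 ± 0.13, the ceramidase ACER2 by 1.58 ± 0.14, CMBL by 1.29 ± 0.08 and the fructose bisphosphatase TIGAR by 1.03 ± 0.16. Of the 3 genes left, TRIM22 rose by 1.54 ± 0.19, the lysosome-related organelle subunit BLOC1S2 by 1.07 ± 0.06 and the F-box protein FBXO22 by 0.63 ± 0.06.

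**Figure D1:**
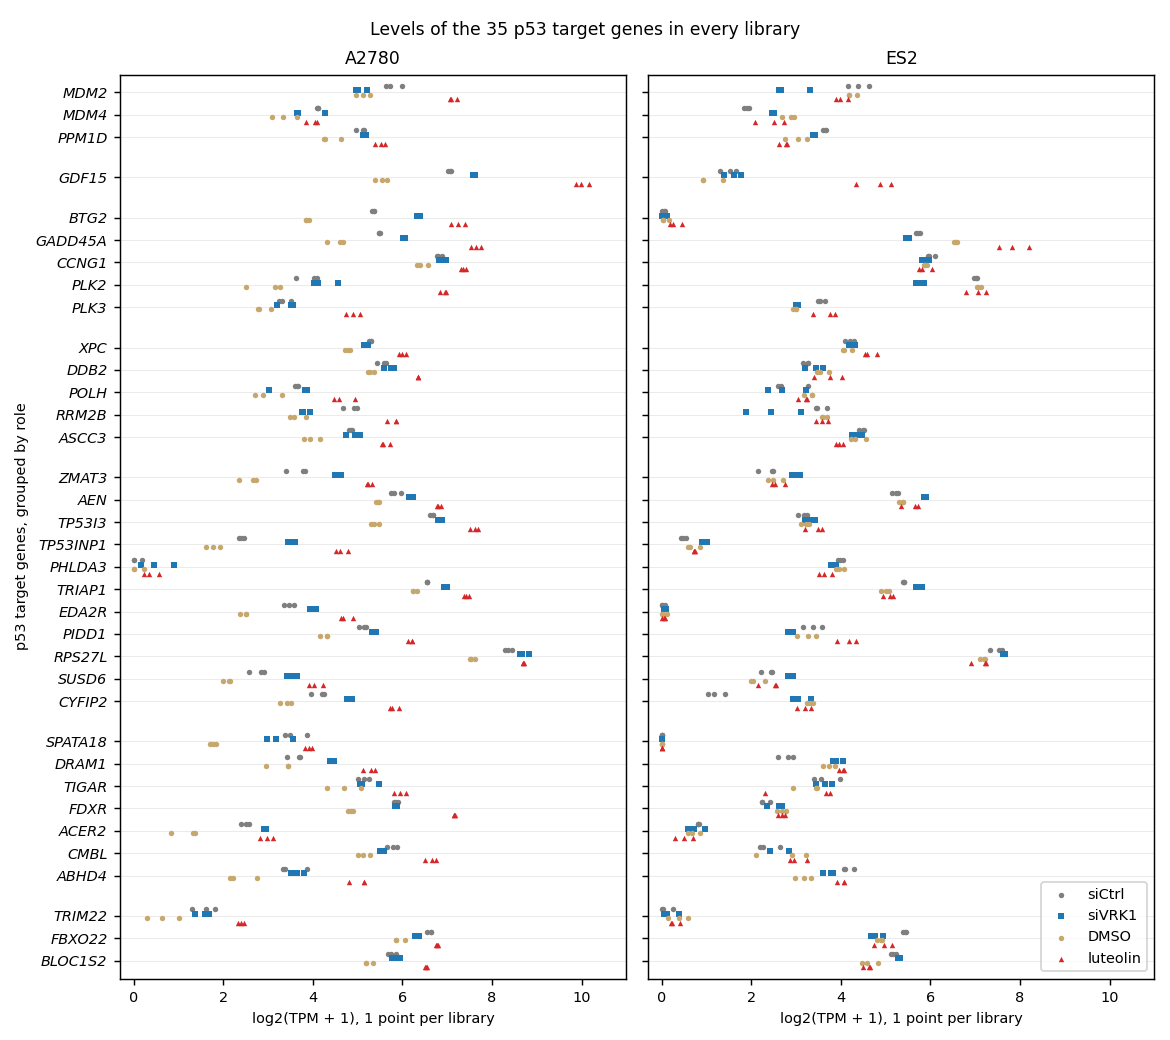
Level of each of the 35 targets in each of the 24 libraries, as log2(TPM + 1) on the horizontal axis, with A2780 on the left and ES2 on the right and 1 point per library (grey siCtrl, blue siVRK1, tan DMSO, red luteolin). In A2780 the red luteolin points lie to the right of the tan DMSO points for all 34 tested targets, while in ES2 they do so clearly for few, GDF15 and GADD45A among them.

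In ES2 cells given luteolin only part of the targets moved. Of 29 members tested, 7 rose and 4 fell, against 22.6% of 12507 genes called higher and 25.8% called lower. The median target changed by 0.06 and the median gene by less than 0.01. The share that rose is near the background, and the share that fell is below it.

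GDF15 had the largest rise of the members in ES2, as in A2780. It stood at 0.887, 0.890 and 1.58 TPM with DMSO and 19.3, 28.2 and 33.5 with luteolin, a log2 change of 3.70 ± 0.20 (adjusted p = 2.4e-08). The luteolin libraries were thus far above the DMSO libraries, yet below every A2780 DMSO library. GADD45A went from 90.7, 94.3 and 95.4 to 184, 227 and 294 TPM (1.29 ± 0.12). The other rises were in PIDD1 (0.90 ± 0.14), ABHD4 (0.86 ± 0.10), PLK3 (0.69 ± 0.11), XPC (0.52 ± 0.09) and DRAM1 (0.29 ± 0.10). For PIDD1 the call was lost with the leading transcript alone, at 0.23. For DRAM1 it was lost with the leading transcript alone, at 0.04, and without DMSO library 1 or 2 (0.29 and 0.22) or luteolin library 1 or 3 (0.28 and 0.27).

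The 4 falls were small. ASCC3 fell from 17.7, 19.04 and 22.5 to 13.9, 14.7 and 15.5 TPM (−0.40 ± 0.09) and PHLDA3 from 13.8, 14.5 and 15.8 to 10.5, 11.3 and 12.9 TPM (−0.33 ± 0.08), without overlap. MDM4 (−0.40 ± 0.14, adjusted p = 0.0335) and PPM1D (−0.29 ± 0.11, adjusted p = 0.0449) were called although their DMSO and luteolin libraries overlapped. The MDM4 call was lost without DMSO library 2 or 3 (−0.38 and −0.34) or luteolin library 1 or 3 (−0.44 and −0.22). The PPM1D call was lost in 11 of the 12 fits that left out 1 ES2 library, at −0.17 to −0.32, and kept without DMSO library 3. MDM2 was at 17.2, 17.3 and 19.5 TPM with DMSO and 13.8, 14.8 and 16.9 with luteolin, which was not called (−0.23 ± 0.17, adjusted p = 0.279), though the libraries did not overlap.

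The luteolin effect was more negative in ES2 than in A2780 for all 28 targets tested in both lines. This is the test of the difference itself (ES2 effect minus A2780 effect, 24 libraries), in which 36.8% of the 11304 genes tested in both lines had a more negative effect in ES2 and 15.1% a more positive one. The median difference of the 28 was −1.37, against −0.19 for those 11304 genes. Values of single genes are given relative to the median of all 14328 genes of this fit, which was −0.20. The largest differences among the 28 were in PLK2 (−3.80 ± 0.23) and ZMAT3 (−2.41 ± 0.18). PLK2 was already at 129.9, 133 and 139 TPM in ES2 DMSO libraries and at 109, 132 and 151 with luteolin, so that every ES2 DMSO library held more of it than any A2780 luteolin library. BTG2, SPATA18, EDA2R, TP53INP1, TRIM22 and ACER2 had group means below 1 TPM in every ES2 group, and PHLDA3 in every A2780 group. These 7 genes passed the filter through 1 line alone, so that their direction is not counted. Of them, BTG2 differed by −2.96 ± 0.11 and TP53INP1 by −2.64 ± 0.13, against a gene near 0 in ES2. SPATA18 was listed at 0 in all 12 ES2 libraries. MDM2, MDM4 and PPM1D differed by −2.04 ± 0.21, −0.85 ± 0.23 and −1.21 ± 0.15. The MDM4 difference was not called with its leading transcript alone, at −0.12 before the median was taken off. GDF15 showed 1 of the smaller differences (−0.58 ± 0.22), which was not called with a pseudocount of 0.1 TPM, at −0.02 before the median was taken off. The differences of TIGAR and CMBL were not called with their leading transcripts alone, at −0.77 and −0.88 before the median was taken off. Of the 28, 7 were called higher in both lines (GDF15, PLK3, GADD45A, XPC, PIDD1, DRAM1 and ABHD4), against 15.5% of the genes tested in both. Called higher in A2780 and lower in ES2 were MDM4, PPM1D and ASCC3, against 6.02%.

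**Figure D2:**
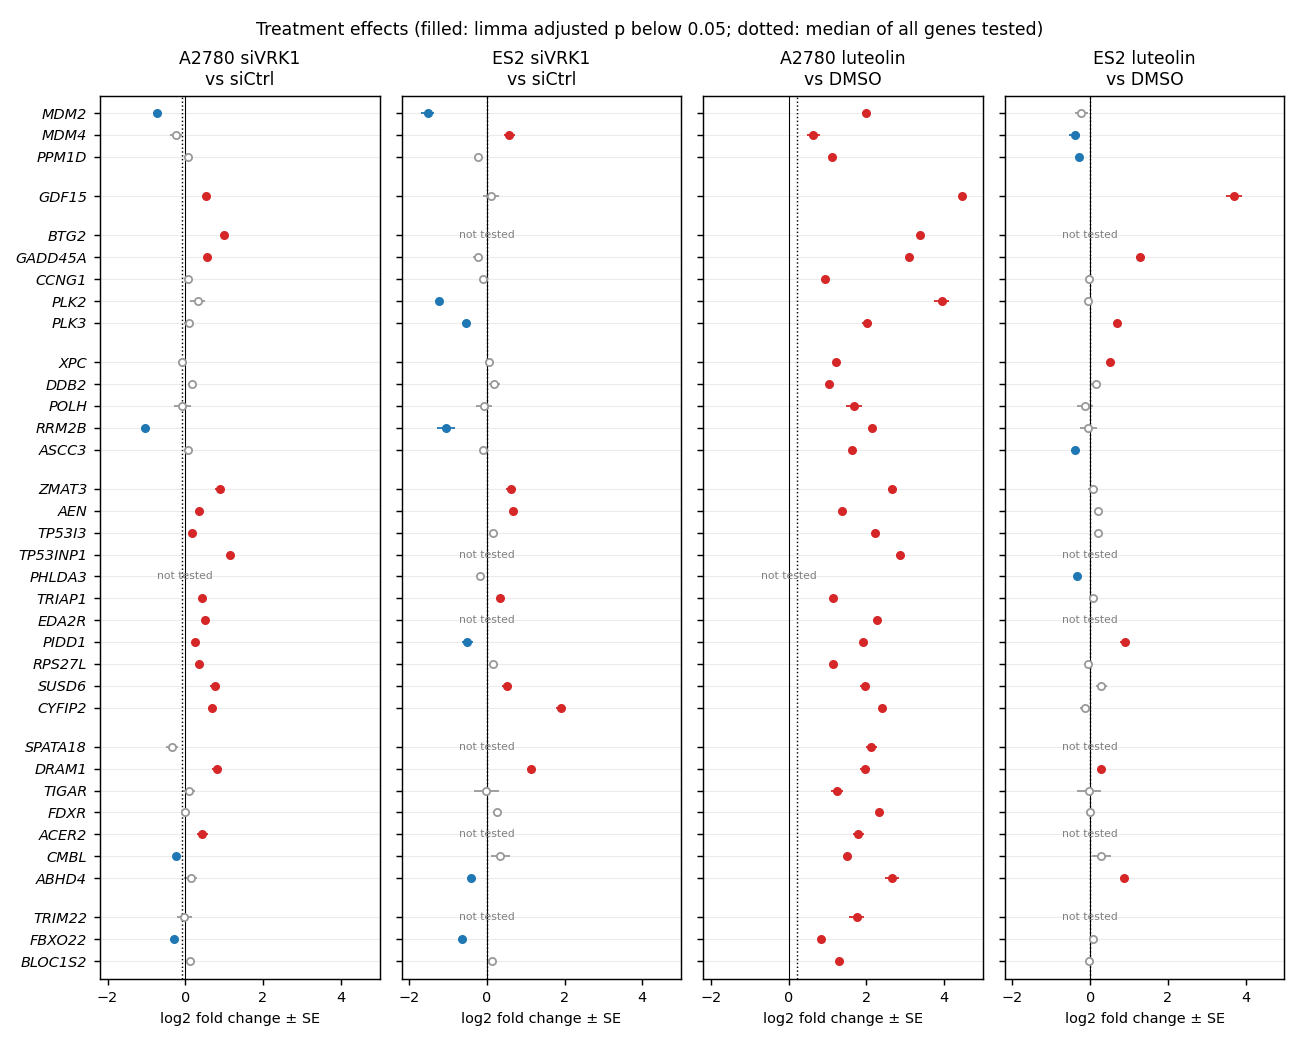
Treatment effects on the 35 targets as log2 fold change on the log2(TPM + 1) scale (points) ± SE (bars), grouped by role, in 4 comparisons of 3 against 3 libraries. Filled red points were called higher, filled blue points lower and open points were not called, the dotted line is the median of all genes tested, and all points of the A2780 luteolin panel lie to the right of that line.

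With siVRK1, the targets of A2780 split, with more rising than falling. Of 34 tested, 15 rose and 4 fell, against 13.8% of all genes called higher and 27% called lower. The median target changed by 0.15 and the median gene by −0.08. With median-of-ratios scaling 18 rose and 3 fell.

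The rises in A2780 covered all 10 tested death, survival and stress effectors. TP53INP1 was at 4.12, 4.26 and 4.52 TPM with siCtrl and 9.99, 10.99 and 11.2 with siVRK1 (1.15 ± 0.10, adjusted p = 3.96e-06). ZMAT3 went from 9.62, 12.7 and 13.3 to 21.7, 22.2 and 23.7 TPM (0.88 ± 0.12). SUSD6 rose by 0.76 ± 0.12 and CYFIP2 by 0.68 ± 0.09. The other 6 rose by 0.18 (TP53I3) to 0.52 (EDA2R), with TRIAP1, AEN, RPS27L and PIDD1 between. The TP53I3 call was lost without siCtrl library 3 or siVRK1 library 3, at 0.16 each, and with the leading transcript alone, at 0.15. PIDD1 was not called with its leading transcript alone, at −0.02. Of the growth arrest genes, BTG2 went from 39.1, 40.4 and 40.5 to 79.4, 81.5 and 83.01 TPM (1.01 ± 0.07) and GADD45A from 43.6, 43.8 and 44.01 to 63.6, 65.4 and 65.7 (0.56 ± 0.08), both without overlap. PLK2 (0.32 ± 0.19), PLK3 (0.08 ± 0.13) and CCNG1 (0.08 ± 0.06) were not called. DRAM1 rose from 9.68, 12.02 and 12.2 to 19.8, 20.8 and 21.2 TPM (0.82 ± 0.13), ACER2 by 0.43 ± 0.14 and GDF15 by 0.54 ± 0.07, from a mean of 132 to 191 TPM. The ACER2 call was lost without siCtrl library 2 or 3 or any 1 of the 3 siVRK1 libraries (0.39 to 0.44), and with a pseudocount of 0.1 TPM, at 0.50.

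Falls in A2780 came in MDM2 and RRM2B above all. RRM2B was at 24.6, 29.2 and 30.6 TPM with siCtrl and 12.6, 12.8 and 14.3 with siVRK1 (−1.03 ± 0.11, adjusted p = 1.17e-05). MDM2 went from 48.3, 52.2 and 62.7 to 30.2, 30.99 and 35.96 TPM (−0.73 ± 0.10, adjusted p = 0.000146). FBXO22 fell from 93.5, 98.1 and 98.3 to 77.4, 77.97 and 82.1 (−0.28 ± 0.06). In all 3 the siVRK1 libraries lay below the siCtrl libraries. CMBL (−0.24 ± 0.08, adjusted p = 0.0375) was not called with median-of-ratios scaling (−0.14), nor with retained introns left out (−0.04), nor without siCtrl library 1 or 2 (−0.18 and −0.23), nor without siVRK1 library 2 or 3 (−0.23 and −0.21). MDM4 was at 16.04, 16.3 and 16.3 TPM with siCtrl and 11.5, 11.7 and 18.4 with siVRK1, with 1 high siVRK1 library, and was not called (−0.24 ± 0.16). Without that library the change was −0.45 and called. The leading transcript of MDM4 alone fell by 0.89, which was called. PPM1D was not called either (0.07 ± 0.10). No other DNA repair gene than RRM2B was called, and XPC, DDB2, POLH and ASCC3 stood between −0.09 and 0.16.

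In ES2, siVRK1 raised 7 of the 29 tested targets and lowered 7. The background was 26.8% of 12507 genes called higher and 28% called lower, and the median target changed by 0.04. Both shares are near the background.

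MDM2 fell further in ES2 than in A2780. It was at 16.9, 19.7 and 23.9 TPM with siCtrl and 5.13, 5.36 and 8.91 with siVRK1 (−1.53 ± 0.17, adjusted p = 8.67e-06), and the difference between the lines was called (−0.80 ± 0.21, adjusted p = 0.00635). That difference was not called with the leading transcript of MDM2 alone, at −0.47. PLK2 fell from 124, 128 and 129.6 to 50.5, 53.004 and 57.04 TPM (−1.24 ± 0.09) and RRM2B from 9.83, 10.1 and 11.9 to 2.69, 4.41 and 7.63 (−1.06 ± 0.22). FBXO22 fell from 41.1, 41.99 and 42.8 to 24.7, 26.1 and 29.6 TPM (−0.63 ± 0.09). In these 4 genes all siVRK1 libraries lay below all siCtrl libraries. PLK3 (−0.54 ± 0.11), PIDD1 (−0.51 ± 0.14) and ABHD4 (−0.42 ± 0.10) also fell. For PLK3, ABHD4 and FBXO22 the siCtrl libraries were the highest of the siCtrl, siVRK1 and DMSO groups. In that order, PLK3 means were 10.8, 7.12 and 6.88 TPM. ABHD4 means were 16.9, 12.4 and 7.94 TPM, and FBXO22 means 41.9, 26.8 and 28.3 TPM. For MDM2, PLK2, RRM2B and PIDD1 the DMSO means were 18.02, 134, 11.3 and 8.53 TPM, nearer to siCtrl than to siVRK1.

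Of the rises in ES2, CYFIP2 went from 1.05, 1.24 and 1.68 to 6.69, 7.19 and 9.01 TPM (1.89 ± 0.13) and DRAM1 from 5.08, 6.09 and 6.67 to 13.2, 13.96 and 15.7 (1.14 ± 0.10). The ES2 DMSO libraries held 8.41, 8.99 and 9.35 TPM of CYFIP2 and 11.2, 12.4 and 13.7 TPM of DRAM1, so that the siCtrl libraries were the low ones of the 3 groups. The siCtrl libraries were also the lowest of the 3 groups for MDM4, at 2.59, 2.75 and 2.84 TPM with siCtrl, 4.47, 4.50 and 4.66 with siVRK1 (0.57 ± 0.14) and 5.45, 6.38 and 6.77 with DMSO. AEN (0.67 ± 0.08), ZMAT3 (0.62 ± 0.13), SUSD6 (0.51 ± 0.13) and TRIAP1 (0.35 ± 0.07) rose as well. PPM1D (−0.24 ± 0.11, adjusted p = 0.0849) was not called, but was without DMSO library 1 or 3, which changes only the estimate of the spread, and with its leading transcript alone, at −0.59.

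The lines shared 9 calls with siVRK1. Of 28 members tested in both, ZMAT3, AEN, TRIAP1, SUSD6, DRAM1 and CYFIP2 rose in both. That is 6 of the 28, against 7.82% of all genes tested in both. These genes make up 6 of the 15 rises in A2780 and 6 of the 7 in ES2, with no background share computed for such fractions. Among the 15 A2780 rises, BTG2, TP53INP1, EDA2R and ACER2 were not tested in ES2 and could not be shared. MDM2, RRM2B and FBXO22 fell in both, which is 3 of the 28, against 15.2% of all genes tested in both. The share of members that fell in both is thus below the background. These 3 are among the 4 falls in A2780 and the 7 in ES2. PIDD1 rose in A2780 and fell in ES2 (−0.75 ± 0.15 for the difference), against 1.41% of all genes. With the leading PIDD1 transcript alone neither change was called, at −0.02 in A2780 and 0.27 in ES2, and the difference was 0.29.

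In the test of the difference between the lines, 3 of the 28 targets tested in both had a more positive siVRK1 effect in ES2 and 6 a more negative one, against 22.7% and 12.3% of the 11304 genes tested in both. Median-of-ratios scaling and quantile normalization each gave 2 and 10. CYFIP2 (1.22 ± 0.16), MDM4 (0.81 ± 0.23) and AEN (0.31 ± 0.11) were the more positive ones. AEN lost its call with that scaling, at 0.20, and without A2780 siCtrl library 1 (0.24), A2780 siVRK1 library 3 (0.28), ES2 siCtrl library 1 (0.27) or the ES2 siVRK1 library numbered 3 (0.30). Beside MDM2 and PIDD1, the more negative ones were PLK2 (−1.56 ± 0.23), GADD45A (−0.80 ± 0.15), PLK3 (−0.63 ± 0.17) and FBXO22 (−0.35 ± 0.11). The FBXO22 call was lost without 1 of the 2 ES2 siVRK1 libraries that share a column name (−0.29). BTG2 (−0.99 ± 0.11), TP53INP1, EDA2R and PHLDA3 were also called, but passed the filter through 1 line alone and are not counted. For BTG2 the difference is the A2780 rise against a gene at 0, 0.0415 and 0.0482 TPM in the ES2 siCtrl libraries.

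**Figure D3:**
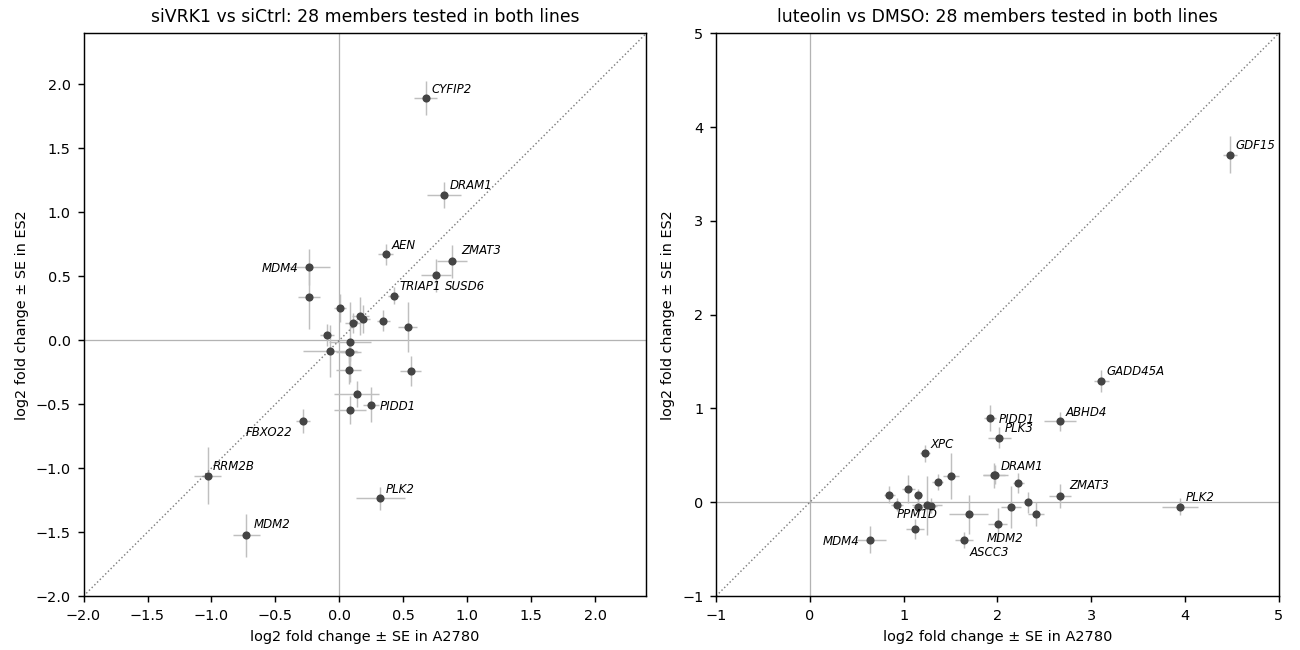
Effect in ES2 against effect in A2780 for the 28 targets tested in both lines, with siVRK1 on the left and luteolin on the right; points are log2 fold changes on the log2(TPM + 1) scale, bars are SE and the dotted line marks equal effects. With luteolin all points lie below the line, and with siVRK1 they lie on both sides of it, with MDM2, RRM2B and FBXO22 negative in both lines.

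A word of 7 bases, GATAATA, in the 3′ UTR was held by all 3 targets that fell with siVRK1 in both lines. The word came from an earlier search over all genes of these same data for words more common among the falls, so that its presence here is a description and no independent evidence. In GENCODE 29, 10.8% of 19132 searched protein-coding genes held it in a 3′ UTR, and 7 of the 35 targets did. MDM2, RRM2B and FBXO22 were all among these 7, as were PLK3, POLH, TRIM22 and BLOC1S2. Of the 15 members called higher in A2780 and the 7 called higher in ES2, 0 held it. Of the 4 called lower in A2780, 3 held it, and of the 7 called lower in ES2, 4 did, PLK3 being the fourth. POLH and BLOC1S2 held it and were not called in either line. Sites of MDM2 and FBXO22, 2 of the 3 genes that fell in both lines, are printed below. They come from GENCODE 29 transcripts (GRCh38, plus strand, 5′ to 3′, the word in capitals). The 3′ UTR of MDM2-202 has 10837 bases and that of FBXO22-202 has 569, and the counts above take no account of length. The MDM2 sites from bases 3939, 4008 and 4036 have nearly the same flanking bases. Whether the word has a part in the falls was not tested.
MDM2, chr12:68842526-68842555, from base 2688 of the 3′ UTR of MDM2-202: tctacaaaacaGATAATAtggatgtttgat
MDM2, chr12:68843777-68843806, from base 3939: tatttggagttGATAATActtcagctacaa
MDM2, chr12:68843846-68843875, from base 4008: tatttggagttGATAATActtcagcttcaa
MDM2, chr12:68843874-68843903, from base 4036: aatttggagttGATAATAtttcagctagaa
FBXO22, chr15:75930145-75930174, from base 70 of the 3′ UTR of FBXO22-202: agaattattaaGATAATAgttcattccatt

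**Figure D4:**
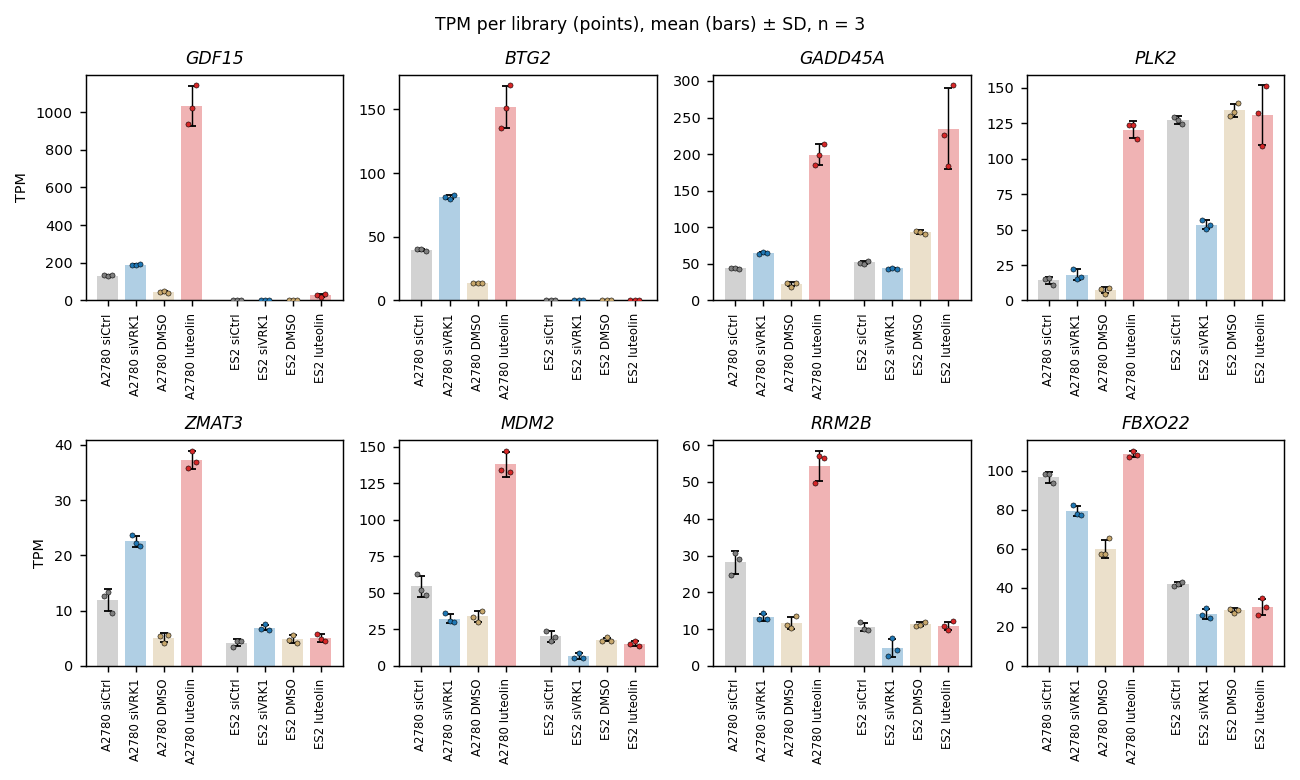
TPM of 8 targets in each library (points) with the group mean (bars from 0) ± SD (n = 3), for both lines and all 4 groups; each panel has its own linear axis. GDF15 and BTG2 reach their highest levels with luteolin in A2780, PLK2 is high in ES2 except with siVRK1, and MDM2, RRM2B and FBXO22 are lower with siVRK1 than with siCtrl in both lines.

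The luteolin effect was larger than the siVRK1 effect in every tested target of A2780. Each effect is taken against its own control, and the siCtrl libraries stood above the DMSO libraries in these genes, by a median of 0.74, so that a larger effect is not a higher level. RPS27L, for one, was at 419 ± 28.4 TPM with siVRK1 and 417 ± 3.59 with luteolin (SD, n = 3). In the test of the luteolin effect minus the siVRK1 effect, all 34 were positive, against 43.3% of all genes, with a median difference of 1.73, or 1.43 relative to the median gene. GDF15 (3.64 ± 0.10 relative to the median gene), PLK2 (3.32 ± 0.27), RRM2B (2.88 ± 0.15) and MDM2 (2.43 ± 0.15) differed most. RRM2B and MDM2 were called in both comparisons, with opposite signs. MDM4 (0.58 ± 0.23) lost its call with quantile normalization, at 0.43 before the median was taken off.

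In ES2 the same test called 10 targets higher and 6 lower with luteolin, against 25.8% and 26% of all genes. GDF15 (3.60 ± 0.28), GADD45A (1.53 ± 0.17), PIDD1 (1.41 ± 0.19) and MDM2 (1.29 ± 0.24) had the largest positive differences. The PIDD1 difference was not called with its leading transcript alone, at −0.04. CYFIP2 (−2.02 ± 0.18), MDM4 (−0.97 ± 0.20), DRAM1 (−0.85 ± 0.14) and ZMAT3 (−0.55 ± 0.18) had the largest negative ones. The ZMAT3 call was lost without siCtrl library 1 (−0.45), 1 of the 2 siVRK1 libraries that share a column name (−0.50) or DMSO library 2 (−0.46). PPM1D did not differ detectably (−0.05 ± 0.15), and its sign turned without DMSO library 1 (0.06) or luteolin library 1 (0.01).

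In the controls too, most targets stood lower in ES2. Over the 12 siCtrl and DMSO libraries, 21 of the 28 targets tested in both lines were lower in ES2 than in A2780 and 3 were higher, against 49.4% and 33.4% of the genes tested in both. Median-of-ratios scaling gave 20 and 5. The siCtrl and DMSO groups were averaged here, and in A2780 the siCtrl group stood above the DMSO group in these genes. With DMSO alone some targets were near level. RRM2B means were then 11.6 TPM in A2780 and 11.3 in ES2, and SUSD6 means 3.29 and 3.35. Others were not, such as FDXR at 27.8 and 5.41 TPM. The SUSD6 call was lost in 7 of the 24 fits that left out 1 library. The median target of the 28 differed by −0.78 and the median gene tested in both by −0.15. Values of single genes are relative to the median of all genes of the fit, which stood at −0.17. GDF15, at 128, 133 and 134 TPM in A2780 siCtrl libraries and 1.46, 1.87 and 2.14 in ES2, was the lowest by comparison (−4.85 ± 0.11). CMBL (−2.74 ± 0.14) came next. PLK2 (3.76 ± 0.12), GADD45A (1.30 ± 0.08) and ABHD4 (0.87 ± 0.11) were higher in ES2. The 7 genes that passed the filter through 1 line alone are not counted, since that filter fixes their direction. Of these, BTG2 (−4.39 ± 0.06) and EDA2R (−2.76 ± 0.06) were near 0 in ES2 and PHLDA3 (4.08 ± 0.10) in A2780. PHLDA3 was at 14.3, 14.8 and 15.5 TPM in ES2 siCtrl libraries and 0, 0 and 0.140 in A2780. MDM2 (−0.97 ± 0.11), MDM4 (−1.19 ± 0.11) and PPM1D (−1.23 ± 0.07) were lower in ES2.

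The 2 control groups of A2780 were not alike in these genes. All 34 tested targets were called higher with siCtrl than with DMSO, against 47.2% of all genes, and 28 of the 34 were with median-of-ratios scaling. This comparison was added after the group means had been seen. The median target differed by 0.74, or by 0.50 relative to the median gene at 0.24. SPATA18 (1.56 ± 0.15), GDF15 (1.27 ± 0.07) and BTG2 (1.25 ± 0.07) differed most, and GDF15 means were 45.4 TPM with DMSO, 132 with siCtrl, 191 with siVRK1 and 1032 with luteolin. RRM2B stood at 11.6 TPM with DMSO and 13.2 with siVRK1, and at 28.1 with siCtrl. MDM2 means were likewise 33.8, 32.4 and 54.4 TPM in that order. FBXO22 means were 59.9, 79.2 and 96.6 TPM in the same order. The siRNA, its transfection and anything else that set the siCtrl and DMSO cultures apart cannot be told apart. Each treatment comparison uses 1 of these controls. In ES2, 7 targets were higher with siCtrl and 5 lower, against 34.7% and 21.5% of all genes, and 7 and 8 with median-of-ratios scaling. CYFIP2 (−2.10 ± 0.13) and DRAM1 (−0.95 ± 0.10) were the farthest below and ABHD4 (1.004 ± 0.10) the farthest above.

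MDM2 has 2 main annotated starts, the second of which lies just downstream of the printed p53 consensus match. In GENCODE 29, 7 of its listed transcripts begin at chr12:68808176-68808464 and 5 at chr12:68809002-68809024. The summed TPM of each class is an estimate, since transcripts of both classes share most exons, and it was not tested. In A2780 the first class went from 9.26 ± 1.04 TPM with DMSO to 37.1 ± 2.51 after luteolin (SD, n = 3), and from 27.4% to 26.9% of all MDM2. The second went from 7.98 ± 3.15 to 50.3 ± 5.38 TPM, and from 23.6% to 36.4%. Both classes were thus higher in every luteolin library than in any DMSO library. The share of the second class was 41.1% with siCtrl and 41.8% with siVRK1, so that the DMSO share was the lowest of the A2780 groups. With siVRK1 the first class went from 17.1 ± 2.08 to 10.2 ± 0.752 TPM in A2780 and the second from 22.4 ± 0.577 to 13.5 ± 1.49. In ES2 the first went from 8.73 ± 2.15 with siCtrl to 2.60 ± 0.340 with siVRK1, and the second from 4.85 ± 0.570 to 1.38 ± 0.325. With siVRK1 against siCtrl their shares of MDM2 stayed within 4 percentage points in both lines. With luteolin in ES2 the second class was lower, from 5.35 ± 0.338 to 3.28 ± 0.331 TPM without overlap, and the first went from 6.08 ± 1.80 to 4.42 ± 0.664 TPM with overlap. The other 25 transcripts, which begin elsewhere or were not placed, held 26.6% to 49.4% of MDM2 by group. They went from 16.6 ± 2.14 to 50.6 ± 7.28 TPM with luteolin in A2780 and from 6.60 ± 0.921 to 7.51 ± 0.835 TPM in ES2.

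**Figure D5:**
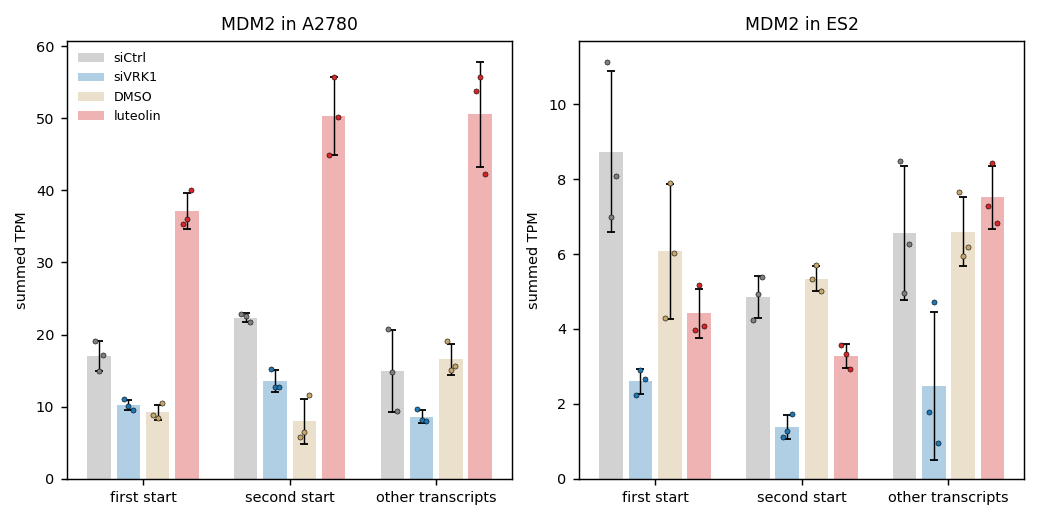
Summed TPM of MDM2 transcripts by annotated start (first start, second start, all other transcripts) in each library (points), with the group mean (bars) ± SD (n = 3), for A2780 and ES2 on separate linear axes. In A2780 both starts are highest with luteolin, and in both lines both starts are lower with siVRK1 than with siCtrl.

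Regulators of p53, listed separately and including VRK1 itself, moved in both directions. Of 24 tested regulators, 10 were higher and 4 lower with luteolin in A2780, against 45.6% and 19.9% of all genes, and 8 and 11 with median-of-ratios scaling. ATM, the kinase that signals DNA breaks to p53, rose (0.87 ± 0.13), and the checkpoint kinase CHEK1 fell (−0.73 ± 0.11). With siVRK1 in A2780, 1 was higher and 13 were lower, VRK1 among them, against 13.8% and 27% of all genes, or 4 and 7 with that scaling. The ribosomal protein genes RPL5 (−0.80 ± 0.03) and RPL11 (0.33 ± 0.03), whose proteins can bind MDM2, moved in opposite directions. In ES2, 4 rose and 12 fell with siVRK1, VRK1 among the falls, against 26.8% and 28% of all genes. The acetyltransferase KAT5 rose (0.62 ± 0.08). Of the kinases of p53, HIPK2 fell (−1.26 ± 0.06) and DYRK2 rose (0.95 ± 0.08). With luteolin in ES2, 3 rose and 8 fell, against 22.6% and 25.8%. The checkpoint kinase CHEK2 rose (0.36 ± 0.08; not called with its leading transcript alone, at 0.37), and USP7, the deubiquitinase of MDM2 and p53, fell (−0.85 ± 0.09).

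Further p53 targets on a list of their own also rose with luteolin in A2780. Of 45 further targets tested there, 44 rose with luteolin, against 45.6% of all genes, and 43 did with median-of-ratios scaling, with a median of 1.14 relative to the median gene. ATF3, a stress-induced transcription factor, went from 13.3 to 106 TPM (2.71 ± 0.14) and IER5 from 13.9 to 82.9 (2.28 ± 0.07). Of 10 tested CDK inhibitor and cell death family targets, 9 rose. CDKN1A, the CDK inhibitor p21, was at 48.1, 48.3 and 52.001 TPM with DMSO and 809, 852 and 988 with luteolin (3.91 ± 0.07), and the death receptor FAS rose by 2.87 ± 0.11. In ES2, 21 of 42 further targets rose with luteolin and 7 fell, and 6 of 11 family targets rose and 2 fell, against 22.6% and 25.8% of all genes. SESN2, a stress-induced regulator of growth signalling, rose there from 4.79 to 39.1 TPM (2.79 ± 0.08), and TNFRSF6B, a decoy receptor, fell (−1.86 ± 0.05), as did CDIP1 (−0.81 ± 0.19; not called with its leading transcript alone, at −0.66). Of the family targets, PMAIP1, which encodes the BH3-only protein NOXA, rose (1.62 ± 0.09) and the BCL2 family effector BAX fell (−0.27 ± 0.06; not called with its leading transcript alone, at −0.14). CDKN1A was low in ES2, at 3.29, 3.46 and 3.75 TPM with DMSO and 7.55, 12.3 and 13.5 with luteolin (1.39 ± 0.16). Its luteolin effect was smaller in ES2 than in A2780 (−2.54 ± 0.18 relative to the median gene). With siVRK1 in A2780, 15 further targets rose and 10 fell of 45, or 18 and 5 with median-of-ratios scaling, against 13.8% and 27% of all genes. In ES2 13 rose and 12 fell of 42, against 26.8% and 28%. The largest rises were in ZNF561 (1.10 ± 0.08) and FAM210B (0.98 ± 0.07) in A2780 and in STEAP3 (2.11 ± 0.07), an endosomal ferrireductase, and KITLG (1.31 ± 0.10), the ligand of the receptor KIT, in ES2. Of the family targets, 2 rose and 1 fell of 10 in A2780, and 3 rose and 3 fell of 11 in ES2. CDKN1A rose with siVRK1 in A2780, from 168, 168 and 183 to 350.3, 354 and 359 TPM (1.03 ± 0.07), and in ES2 from 4.70, 4.89 and 4.998 to 13.3, 14.8 and 15.7 (1.41 ± 0.16), while MDM2 fell in both lines. TNFRSF10B and TNFRSF10D, listed with the death receptor family, moved apart with siVRK1. They changed by −0.51 ± 0.06 and 1.11 ± 0.11 in A2780 and by −0.81 ± 0.08 and 1.03 ± 0.05 in ES2. E2F7, a repressor of cell cycle genes, fell in both lines (−1.17 ± 0.10 and −1.25 ± 0.07), and SFN, which encodes the protein 14-3-3 sigma, fell in A2780 (−1.07 ± 0.17). PMAIP1 fell in ES2 (−0.41 ± 0.09).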

How the data were processed

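RNA was measured by RNA-seq in 24 libraries, 3 for each of 8 groups. The authors' deposited table holds TPM values per transcript, and per the submitters' processing notes FastQC and kallisto were used with build hg19. Which transcript set and versions were used is not stated there. The table has 191887 distinct transcripts and 1958 repeated lines, which were used once. TPM were summed per gene symbol. The name of 1 ES2 siVRK1 column occurs on 2 columns, which were kept as 2 libraries without a number. Transcripts without 1 symbol held 0.514% to 1.03% of TPM and were left out.

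Genes at 1 TPM or more in at least 3 libraries of a fit were tested on log2(TPM + 1) with limma 3.58.1 in R 4.3.3 (limma-trend, Benjamini-Hochberg adjustment over all genes tested, threshold 0.05), with 12 libraries of a line per fit, or all 24 for comparisons of lines, whose counts cover only genes tested in each line, a restriction added after the values were seen. Fold changes on this scale understate the change of low genes. TPM are shares of a library, so a change of abundant transcripts moves all others. The code was tested on simulated data. The members and all lists were chosen with earlier results of these data known. By rule, the genes named were MDM2, MDM4, PPM1D, CDKN1A, the largest called changes where the higher group reached 5 TPM, and up to 2 per direction of each other list; other members are given by role, and were named after their values were seen. The rule held 1 more gene, which is not reported here. Alternatives were pseudocounts of 0.1 and 5 TPM, other filters, other scalings, mitochondrial mRNAs or retained introns left out, the leading transcript alone, the replicate number as a block, fits of the compared groups alone, and each library left out. Loci and 3′ UTRs came from GENCODE 29 (GRCh38), promoters from RefSeq (GRCh38.p14), and no coordinate was taken from the deposited table.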

Additional observations from a re-analysis of the deposited data

Results flagged for a closer look

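The response to the same treatment differed between the lines by a test of the difference (limma, ES2 effect minus A2780 effect, adjusted p below 0.05). For siVRK1, 3 of the 28 targets tested in both lines had a more positive effect in ES2 and 6 a more negative one, against 22.7% and 12.3% of the genes tested in both. The differences were −0.80 for MDM2, 0.81 for MDM4, −1.56 for PLK2, −0.99 for BTG2, −0.80 for GADD45A, 0.31 for AEN and 1.22 for CYFIP2, on the log2(TPM + 1) scale.

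For luteolin, all 28 targets tested in both lines had a more negative effect in ES2 and 0 a more positive one, against 36.8% and 15.1% of the genes tested in both, with limma and also with median-of-ratios scaling and quantile normalization. The differences, before the median gene is taken off, were −2.23 for MDM2, −1.04 for MDM4, −3.99 for PLK2, −3.16 for BTG2, −2.60 for ZMAT3, −2.83 for TP53INP1, −1.40 for PPM1D and −2.74 for CDKN1A. BTG2 and TP53INP1 were near 0 TPM in ES2 and are not among the 28. Of the 28, GDF15 was not called with a pseudocount of 0.1 TPM, nor were MDM4, TIGAR and CMBL with their leading transcripts alone.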

How the results depend on the processing

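Of 22 counts of called targets, 16 values under the alternatives were more than 1.5 times off, and 558 were not. Targets lower with siVRK1 in A2780 were 7 with the leading transcript alone, against 4. With the replicate number as a block, ES2 targets called higher with siVRK1 were 4 against 7, those called lower with luteolin 2 against 4, those with a more positive siVRK1 effect in ES2 1 against 3, and those with a lower luteolin than siVRK1 effect in ES2 3 against 6. The correlation of deviations between libraries of the same number ran from −0.097 to 0.041 over 18 pairs in A2780. In ES2 it ran from −0.063 to 0.037 over 12 pairs. Between libraries of different number it ran from −0.060 to 0.12 in A2780 and from −0.073 to 0.069 in ES2. The ES2 siVRK1 libraries without a number were not in these pairs. Libraries of the same number thus showed no shared deviation, which cannot show that they were unpaired. The ES2 targets lower with luteolin were also 2 with no filter, with mitochondrial mRNAs removed and with the compared groups alone, and 2 to 3 when a library was left out (2 without DMSO library 2, luteolin library 1 or luteolin library 3). ES2 targets lower with siCtrl than with DMSO were 8 with median-of-ratios scaling, against 5. Of targets tested in both lines, those with a more negative siVRK1 effect in ES2 were 10 with median-of-ratios scaling or quantile normalization, against 6, and those higher in ES2 controls were 5 with median-of-ratios scaling or the leading transcript alone, against 3. Leaving out 1 library at a time gave 34 targets higher with luteolin in A2780 and 28 lower in the difference between lines each time.

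Of the values of single genes, 20 turned sign. With the leading transcript alone, PPM1D was −0.12 with siVRK1 in A2780, PIDD1 was −0.023 with siVRK1 in A2780, 0.27 in ES2 and 0.29 for the difference, and in ES2 luteolin minus siVRK1 PIDD1 was −0.036, PPM1D 0.45 and CDKN1A 0.11. DRAM1 in A2780 siCtrl against DMSO was 0.33, and −0.0079 with quantile normalization. CDKN1A had a siVRK1 difference between lines of 0.38, and −0.026 with a pseudocount of 5 TPM. For luteolin minus siVRK1 in ES2, CDKN1A (−0.02) was 0.031 with a pseudocount of 0.1 TPM, 0.0013 with median-of-ratios scaling, 0.0087 with quantile normalization, 0.029 with mitochondrial mRNAs removed and 0.18 with the replicate block. Leaving out a library moved CDKN1A there to between −0.17 and 0.21 and PPM1D (−0.05) to between −0.18 and 0.063, and they turned in 4 and 2 of 12 such fits. The cause was not tested. Depth is unknown, so no limit of detection can be given.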
